A study of Mus musculus with 6 samples.

Results

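Genes of homologous recombination, the Fanconi pathway and the replication stress checkpoint were compared between liver CD8+ T cells of TGC3 mice and of TG mice. The set held 40 genes, chosen by name, and its probes were those whose gene name in the array files equalled it. The brightest kept probe gave the value of a gene. All 40 were on the array, with 75 probes, and all 40 were measured, among 16395 genes tested. TGC3 mice carry dnTGFβRII, which encodes a dominant negative form of TGF-beta receptor II, and lack the chemokine receptor CXCR3 (CXCR3-/-). TG mice carry dnTGFβRII with Cxcr3 intact, so that both groups have blocked TGF-beta signalling and no wild-type cells were part of the comparison. The promoter of the transgene is not given in the sources used here, but in the widely used line of this name it is the CD4 promoter, active in CD4+ and CD8+ T cells. All mice were female, on a C57BL/6 background and 13 to 14 weeks old, and RNA of sorted cells was read on 1-colour Agilent arrays, 3 for each group, named TGC3 1 to TGC3 3 and TG 1 to TG 3. The study asked what CXCR3 does in the activation and proliferation of these cells.

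Homologous recombination repairs a broken or stalled replication fork by copying the sister chromatid. Broken ends are cut back to single strands, BRCA1 with BARD1 and BRCA2 with PALB2 ready these for strand exchange, and factors such as RAD54 and RAD51AP1 help the strand to pair with its template. The Fanconi proteins clear crosslinks that block a fork: a core complex with the ubiquitin ligase FANCL marks FANCD2 and FANCI, which then bring in the BRCA proteins and nucleases. The kinases ATR and CHK1, aided by claspin, TIMELESS and TIPIN, hold the cell cycle while a fork is stalled. Since these tasks fall mostly in S and G2 phase, part of the genes is transcribed mainly in dividing cells under E2F factors, while others are made at all times. In T cells, whose divisions during a response are fast, the same proteins protect replicating DNA.

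The letters that E2F factors are known to bind were searched for in the promoters, from 250 bases before to 50 bases after the start of the transcript (RefSeq, GRCm38.p6). The first E2F word searched for was TTCCCGC, the second was TTGCCGC, the third was TTGGCGC, and the last was TTCGCGC. Both strands were read, and overlapping words were counted separately. A promoter was at hand for 32 of the 40 genes, 2 of which had 2 windows. Of the 32, 20 (62.5%) held such a word, against 18.4% of 9837 tested genes and 10.9% of 27025 genes with a window. The word stood in 7 of the 11 genes that rose in TGC3 cells and had a window (63.6%), and in 13 of the 21 that did not pass the test (61.9%). The CHR words TTTGAA and TTCGAA, bound in promoters of late cell cycle genes, stood in 3 of 11 and 2 of 21 (16.6% of the tested genes), and the NF-Y word CCAAT in 5 of 11 and 12 of 21 (42.8%). A match is a description of letters and not evidence of a factor there. Windows with an E2F word are printed 5′ to 3′ for 6 genes that rose and 6 that did not pass, to show that both kinds carry it. Each runs up to 30 bases to either side of the word and no more than 30 bases past the start. Capitals mark the word on either strand, and positions count from 1 at the first transcribed base, with -1 just before it.
Brca1: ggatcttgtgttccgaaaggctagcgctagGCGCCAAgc (chr11:101551926-101551964, minus strand, word at 22 to 28, rose)
Bard1: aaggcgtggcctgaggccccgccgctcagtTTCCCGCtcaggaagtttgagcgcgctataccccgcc (chr1:71103144-71103210, minus strand, word at -208 to -202, rose)
Brca2: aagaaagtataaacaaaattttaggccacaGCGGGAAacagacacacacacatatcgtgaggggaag (chr5:150522423-150522489, plus strand, word at -168 to -162, rose)
Brip1: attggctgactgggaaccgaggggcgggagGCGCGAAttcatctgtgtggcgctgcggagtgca (chr11:86201164-86201227, minus strand, word at -4 to 3, rose)
Rad51ap1: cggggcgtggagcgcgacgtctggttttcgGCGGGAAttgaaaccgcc (chr6:126939558-126939605, minus strand, word at 13 to 19, rose)
Fanci: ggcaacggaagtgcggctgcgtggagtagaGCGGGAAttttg (chr7:79392326-79392367, plus strand, word at 19 to 25, rose)
Fancm: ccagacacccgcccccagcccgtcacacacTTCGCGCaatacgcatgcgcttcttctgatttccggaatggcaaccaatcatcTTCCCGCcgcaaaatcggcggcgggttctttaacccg (chr12:65075466-65075585, plus strand, 2 words, the first at -107 to -101, did not pass)
Fancg: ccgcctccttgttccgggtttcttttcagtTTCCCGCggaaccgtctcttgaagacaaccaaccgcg (chr4:43010316-43010382, minus strand, word at -51 to -45, did not pass)
Topbp1: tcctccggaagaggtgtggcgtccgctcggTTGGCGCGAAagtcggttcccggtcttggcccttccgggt (chr9:103305165-103305234, plus strand, 2 overlapping words, the first at -132 to -126, did not pass)
Rad52: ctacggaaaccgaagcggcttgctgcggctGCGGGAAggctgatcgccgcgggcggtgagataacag (chr6:119902536-119902602, plus strand, word at -132 to -126, did not pass)
Atm: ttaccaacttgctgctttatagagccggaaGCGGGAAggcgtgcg (chr9:53536642-53536686, minus strand, word at 16 to 22, did not pass)
Msh6: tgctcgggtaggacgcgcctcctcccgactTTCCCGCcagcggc (chr17:87975036-87975079, plus strand, word at 17 to 23, did not pass)

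On the arrays, between 58.9% and 63.8% of 41174 probes lay well above background. Cxcr3, deleted in TGC3, had a signal of 23.8 to 33.0 intensity units on the TGC3 arrays and 66107 to 73352 units on the TG arrays. The sorted cells read as CD8+ T cells: 7 of 7 markers on the array (Cd8a, Cd8b1, Cd3e, Cd3d, Cd3g, Cd2 and Cd247) were above background on all 6 arrays, with a summed signal of 381160 to 404830 units in TGC3 and 386920 to 450930 units in TG. Of these 7, 2 were lower in TGC3 and 0 higher, with a median log2 change of -0.20. The 2 were Cd3d (-0.25 ± 0.07, limma adjusted p = 0.0480) and Cd3g (-0.29 ± 0.08, 0.0415), where 9.45% of all genes were lower. Cd4 had 32.8 to 33.4 units in TGC3 and 27.3 to 31.9 units in TG. Neutrophil markers differed between the groups, with a summed signal of 991 to 4999.7 units in TGC3 and 76.1 to 117 units in TG. Of 9 such markers 1 (Mpo) was above background on all arrays and 2 (Cxcr2 and Elane) on none, and most of the TGC3 sum came from S100a8 and S100a9. The 8 macrophage markers summed to 508 to 1809.9 units in TGC3 and 314 to 405 units in TG, with 3 above background on all arrays and C1qa among those on none. The other sums were 3381 to 3701 units in TGC3 and 3014 to 4092 units in TG for 8 B cell markers, 8938 to 14461 and 10386 to 12946 for 7 dendritic cell markers, 141950 to 166280 and 148580 to 174720 for 5 NK cell markers, and 160.3 to 231 and 115 to 138 for 6 erythroid markers. Of these markers, 3 (B cell), 4 (dendritic cell), 5 (NK cell) and 3 (erythroid) were above background on all arrays, while Blk and Pax5 (B cell), Cd209a, Clec9a and Siglech (dendritic cell) and Alas2 and Klf1 (erythroid) were among those on none. Hepatocyte markers were near background, with 0 of 7 above it on all arrays (Apoa1, Cyp2e1, Fabp1 and Ttr on none) and 34.0 to 58.6 units in TGC3 against 25.3 to 83.3 units in TG. In sorted cells read in bulk, more cells of a kind and more RNA per cell cannot be told apart. Each genotype had a slide of its own, so slide effects and genotype effects cannot be told apart in any difference given here.

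Of the 40 genes, 14 were higher in TGC3 cells and 0 lower, and 26 did not pass the test. Over all genes tested, 16.6% were called higher, 9.45% lower and 26.1% either way (limma, Benjamini-Hochberg adjusted p under 0.05 over 16395 genes). The median change of the 40 was 0.28 on the log2 scale, against -0.01 over all genes, and 32 of the 40 changes lay above 0. Changes are TGC3 minus TG of the scaled log2 signal, which is the log2 intensity minus the 75th percentile of its array, and each is given ± standard error with 3 arrays in each group. A rise of at least 2-fold that passed was seen in 6 of the 40, against 3.13% of all genes. The genes that rose were those for BRCA1, BARD1, BRIP1 and BRCA2, the strand exchange factors RAD51AP1, RAD54L and RAD54B, the Fanconi pair FANCD2 and FANCI with FANCA, the nuclease subunits EXO1 and EME1, the kinase CHK1 and the glycosylase NEIL3. In 19 other settings, Chek1 passed in 6, Fanci in 8 and Brca1 in 11. The other genes that rose passed in 14 to 18 of them. The genes for the kinases ATM and ATR, for RAD50, MUS81, RAD52, MSH6 and most of the Fanconi core had changes between -0.21 and 0.22. In 24 of the 40 genes the groups did not overlap (46.7% of all genes). In 23 all 3 TGC3 values lay above all 3 TG values, where 24.3% of all genes did so, and in 1 gene (Rad52) they lay below, as in 22.4% of all genes. At 75% of all genes the change was below 0.25, and at 95% below 0.85, which 9 of the 14 genes that rose exceeded.

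**Figure D1:**
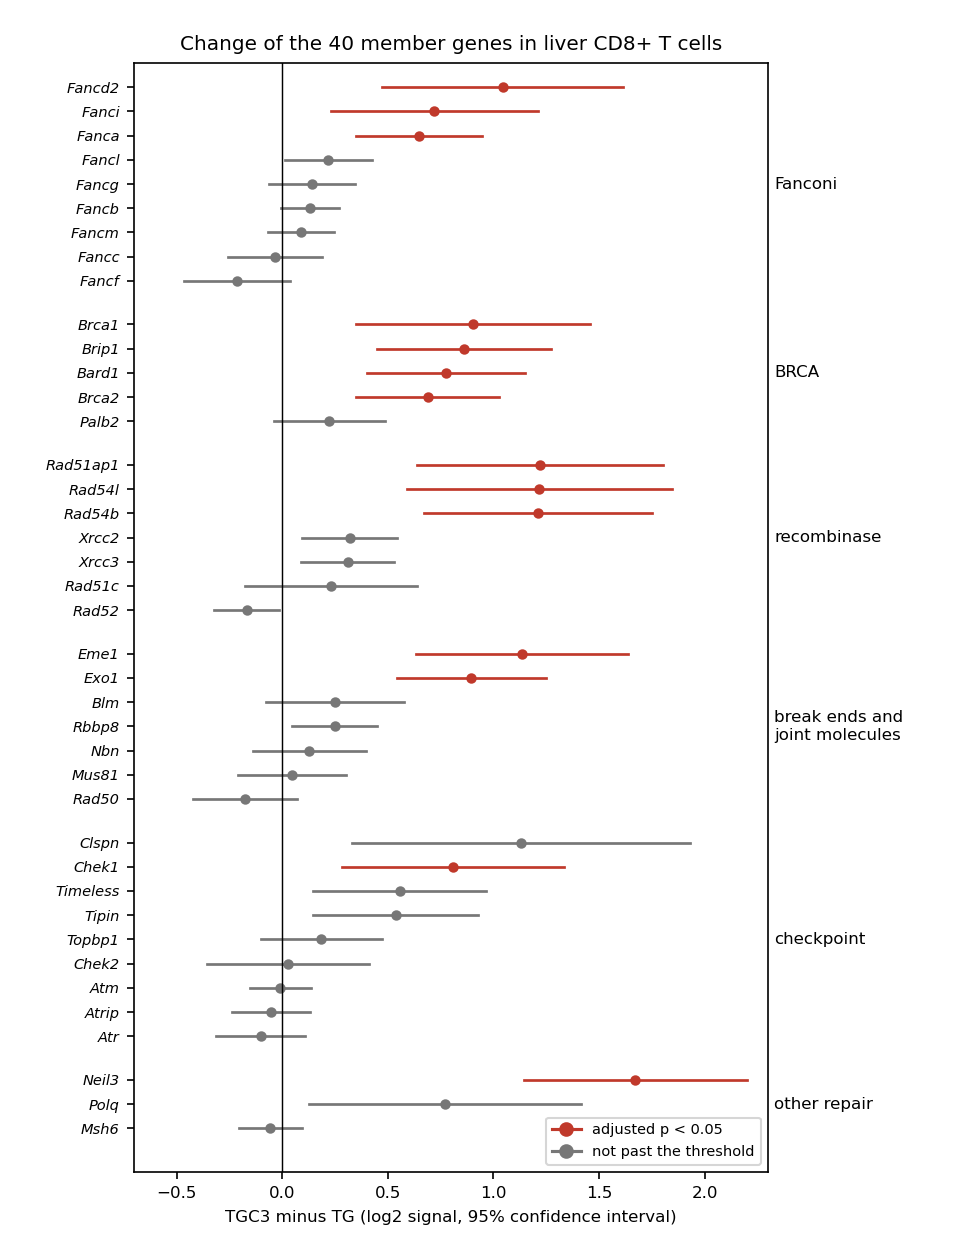
Change of each of the 40 genes, TGC3 minus TG, in log2 signal with its 95% confidence interval from limma, grouped by role. The 14 red genes passed an adjusted p under 0.05 and all lie above 0, up to 1.67 for Neil3, and the lowest grey gene is Fancf at -0.21.

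Of the 5 genes of the BRCA group, 4 rose (80%, against 16.6% of all genes) and Palb2 did not pass. Brca1, the ubiquitin ligase that starts recombination at a break (NM_009764, probe at mm9 chr11:101350409-101350468), had scaled log2 signals of -0.76, -0.25 and -0.83 on TGC3 1 to TGC3 3, against -1.73, -1.71 and -1.10 on TG 1 to TG 3. The groups did not overlap, and TG 3 lay nearest to the TGC3 arrays. The change was 0.90 ± 0.23 (limma adjusted p = 0.0339), a fold of 1.87. Brip1, the helicase that binds BRCA1, read -0.84, -0.36 and -0.85 in TGC3, against -1.62, -1.70 and -1.31 in TG, and rose by 0.86 ± 0.17 (adjusted p = 0.0164). Bard1, the partner that BRCA1 needs as a ligase, was dim, at -4.09, -3.57 and -3.99 in TGC3, against -4.53, -4.81 and -4.64 in TG, and rose by 0.77 ± 0.15 (adjusted p = 0.0169). Bard1 was flagged above background on all 6 arrays, at 34.8 to 51.3 units in TGC3 and 20.4 to 24.8 units in TG. The deleted Cxcr3 was flagged so on all 3 TGC3 arrays too, at 23.8 to 33.0 units, so the flag alone does not show that Bard1 was expressed. Brca2, which readies single strands for strand exchange, read -0.64, -0.22 and -0.73 in TGC3, against -1.23, -1.24 and -1.17 in TG, and rose by 0.69 ± 0.14 (adjusted p = 0.0176). A second Brca2 probe changed by 0.16 ± 0.13 (adjusted p = 0.421 over probes), so that the increase of Brca2 rests on the brighter of its probes. Palb2, which joins BRCA1 to BRCA2, had overlapping values of -3.84, -3.65 and -3.47 in TGC3 and -3.78, -3.94 and -3.92 in TG (0.22 ± 0.11, adjusted p = 0.180). Brca1 did not pass when a TGC3 array, TG 1 or TG 2 was left out (adjusted p = 0.0580 to 0.101). Brip1 and Brca2 did not pass without TG 1 or TG 2 (0.0548 to 0.0584), nor Bard1 without TG 2 or TG 3 (0.0504 to 0.0568). The group then counted 1 riser without TG 1 and 0 without TG 2, where 12% and 11% of all genes were higher.

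Among the genes of strand exchange, called the recombinase group in the plots, 3 of 7 rose, each by more than 2-fold. Their share was 42.9%, against 16.6% of all genes. Rad51ap1, which stimulates strand pairing (NM_009013), read -1.42, -0.86 and -1.38 in TGC3, against -2.53, -2.78 and -2.01 in TG. It rose by 1.22 ± 0.24 (limma adjusted p = 0.0161), and without TG 1 it did not pass (0.0534). Rad54l, the motor protein that remodels DNA during strand exchange, read -2.78, -2.08 and -2.89 in TGC3, against -3.95, -4.02 and -3.43 in TG, a rise of 1.22 ± 0.26 (adjusted p = 0.0202). It did not pass without TG 1 or TG 2 (0.0647 to 0.0658). Its paralog Rad54b (NM_001039556, probe at mm9 chr4:11542714-11542773) read -1.52, -1.24 and -1.62 in TGC3, against -2.78, -3.03 and -2.21 in TG. The change of Rad54b was 1.21 ± 0.22 (adjusted p = 0.0134), and it passed whichever of the 6 arrays was left out. In all 3 genes the TG 3 array lay closest to TGC3. Both kept probes of Rad54l rose, by 1.22 and 0.95, while the second Rad54b probe was well above background on 4 of the 6 arrays.

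Xrcc2, Xrcc3 and Rad51c, whose products assist strand exchange, did not pass by their brightest probes. Xrcc2 read -2.06, -2.34 and -2.12 in TGC3, against -2.48, -2.57 and -2.42 in TG (0.32 ± 0.09, adjusted p = 0.0513), and its groups did not overlap. A second probe, above background on all 6 arrays, passed with a change of 0.57 ± 0.11 (adjusted p = 0.0156 over probes), so that the call of Xrcc2 depends on the probe. The dimmest was above background on 4 of the 6 arrays. Xrcc3 read -2.39, -2.50 and -2.62 in TGC3, against -2.91, -2.70 and -2.83 in TG (0.31 ± 0.09, adjusted p = 0.0516), again without overlap. Rad51c read -3.68, -3.68 and -3.47 in TGC3, against -3.92, -4.11 and -3.49 in TG, with overlapping groups (0.23 ± 0.17, adjusted p = 0.348). Rad52, which anneals single strands, was the 1 gene of the set whose TGC3 values all lay below TG: 0.46, 0.49 and 0.38, against 0.55, 0.65 and 0.64. The difference was small and did not pass (-0.17 ± 0.06, adjusted p = 0.101).

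Of 9 Fanconi genes, 3 rose (33.3%, against 16.6% of all genes) and 6 did not pass. Fancd2, the protein that is ubiquitinated at a crosslink, read -1.45, -0.72 and -1.62 in TGC3, against -2.41, -2.28 and -2.23 in TG, a rise of 1.04 ± 0.23 (limma adjusted p = 0.0242). A second, dimmer Fancd2 probe was well above background on 3 of the 6 arrays, and no change is given for it. Fanci, its partner, read -0.28, 0.43 and -0.28 in TGC3, against -0.84, -0.76 and -0.68 in TG, a rise of 0.72 ± 0.20 (adjusted p = 0.0456). For both, TGC3 2 stood well above the other TGC3 arrays, and for neither did the groups overlap. Fanca, a core complex subunit (NM_016925, probe at mm9 chr8:125792210-125792269), read 0.45, 0.75 and 0.34 in TGC3, against -0.17, -0.22 and -0.01 in TG, a rise of 0.65 ± 0.12 (adjusted p = 0.0147). The other core genes did not pass. Fancl, the ligase, read 1.45, 1.58 and 1.31 in TGC3, against 1.19, 1.26 and 1.23 in TG (0.22 ± 0.08, adjusted p = 0.108). Fancf, an adaptor, read -3.79, -3.64 and -3.76 in TGC3, against -3.34, -3.54 and -3.68 in TG (-0.21 ± 0.10, adjusted p = 0.174). Fancg read 2.43, 2.17 and 2.34 in TGC3, against 2.14, 2.16 and 2.22 in TG (0.14 ± 0.08, adjusted p = 0.259). Fancl had separate groups, and those of Fancf and Fancg overlapped. Fancb (0.13), Fancm (0.09) and Fancc (-0.03) completed the group, whose median change was 0.14. Fanci did not pass when an array other than TGC3 2 was left out (adjusted p = 0.0564 to 0.123), Fancd2 when a TG array was (0.0623 to 0.0738), nor Fanca without TG 1 or TG 2 (0.0510 to 0.0528). The number of Fanconi genes higher was thus 0 without TG 1 or TG 2 and 1 without TG 3. Of all genes, 12%, 11% and 13% were higher without TG 1, TG 2 and TG 3.

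**Figure D2:**
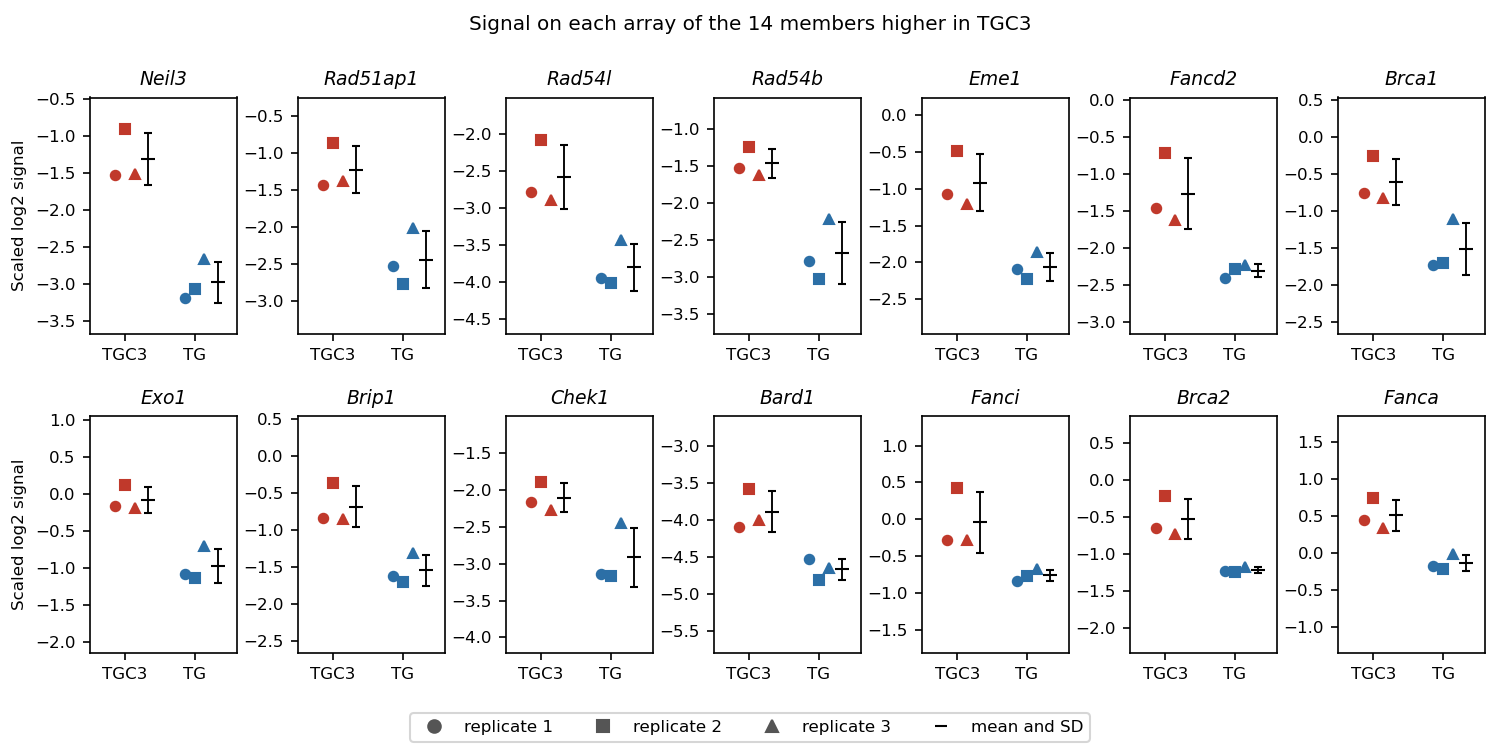
Scaled log2 signal (y axis) on each of the 3 TGC3 and 3 TG arrays for the 14 genes that rose, in order of their change, with mean and SD of each group beside the points. The groups do not overlap in any panel, TGC3 2 (square) is the highest point in all 14.

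Of 7 genes that handle break ends and joint molecules, 2 nuclease genes rose (28.6%, against 16.6% of all genes). Eme1, the partner that makes MUS81 an active nuclease (NM_177752), read -1.07, -0.48 and -1.21 in TGC3, against -2.08, -2.23 and -1.86 in TG, a rise of 1.14 ± 0.21 (limma adjusted p = 0.0130). Exo1, which lengthens the single-stranded tail at a break, read -0.17, 0.12 and -0.19 in TGC3, against -1.08, -1.14 and -0.71 in TG, a rise of 0.90 ± 0.15 (adjusted p = 0.00929). Both passed whichever of the 6 arrays was left out. Mus81 itself had overlapping values, with a change of 0.05 ± 0.10 (adjusted p = 0.771), so that of the 2 subunits of 1 nuclease the transcript of one rose and that of the other did not pass. Blm, a helicase that dissolves crossed strands, read 0.13, 0.30 and -0.20 in TGC3, against -0.27, -0.09 and -0.17 in TG (0.25 ± 0.13, adjusted p = 0.219). Rbbp8, the resection factor CtIP, read 2.34, 2.53 and 2.32 in TGC3, against 2.08, 2.14 and 2.23 in TG (0.25 ± 0.08, adjusted p = 0.0734). Rad50, of the complex that first binds a break, read -1.47, -1.70 and -1.35 in TGC3, against -1.39, -1.30 and -1.31 in TG (-0.18 ± 0.10, adjusted p = 0.240). Rbbp8 had separate groups, while those of Blm and Rad50 overlapped. Nbn, of the same complex as RAD50, had a change of 0.13 ± 0.11 (adjusted p = 0.429). A second Nbn probe passed (0.48 ± 0.09, adjusted p = 0.0147 over probes), so that its probes disagree.

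Of 9 checkpoint genes, only Chek1 passed, and the kinases above it stayed near 0. The share higher, 11.1%, was below the 16.6% of all genes. Chek1, the effector kinase of ATR (NM_007691), read -2.17, -1.89 and -2.27 in TGC3, against -3.14, -3.16 and -2.45 in TG, a rise of 0.81 ± 0.22 (limma adjusted p = 0.0400). TG 3 came close to the lowest TGC3 array, and Chek1 did not pass when a TGC3 array, TG 1 or TG 2 was left out (0.0733 to 0.113). A second Chek1 probe had a like change (0.72 ± 0.27) and did not pass (adjusted p = 0.110 over probes). Clspn, the adaptor that brings CHK1 to ATR, read -3.07, -1.77 and -2.34 in TGC3, against -3.44, -3.81 and -3.33 in TG. Its change of 1.13 ± 0.33 was among the larger ones but its arrays were the most scattered of the set, and it did not pass (adjusted p = 0.0510). Timeless read 0.44, 0.99 and 0.48 in TGC3, against 0.03, -0.04 and 0.25 in TG (0.56 ± 0.17, adjusted p = 0.0563). Its binding partner Tipin read 3.12, 3.42 and 2.92 in TGC3, against 2.53, 2.46 and 2.85 in TG (0.54 ± 0.16, adjusted p = 0.0554). In all 3 the groups were separate. A second Timeless probe passed (0.73 ± 0.18, adjusted p = 0.0363 over probes). Atr had a change of -0.10 ± 0.09 (adjusted p = 0.425) and Atrip, its partner, of -0.05 ± 0.08 (0.632). Atm, the kinase of double-strand breaks, read 0.69, 0.74 and 0.73 in TGC3, against 0.67, 0.72 and 0.79 in TG, with a change of -0.01 (95% confidence interval -0.15 to 0.14). Topbp1, which activates ATR, had 0.19 ± 0.12 (adjusted p = 0.290) and Chek2, the effector of ATM, 0.03 ± 0.16 (0.911).

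Neil3 had the largest change of the set. This glycosylase removes oxidised bases and unhooks crosslinks at replication forks, and its gene (NM_146208, probe at mm9 chr8:54672466-54672525) read -1.52, -0.90 and -1.51 in TGC3, against -3.20, -3.08 and -2.67 in TG. The lowest TGC3 array lay above the highest TG array by more than the spread within either group. The change of 1.67 ± 0.22 (limma adjusted p = 0.00501) was a fold of 3.19, the second kept probe rose as well (1.44 ± 0.31, adjusted p = 0.0232 over probes), and Neil3 passed whichever array was left out. Polq, the polymerase of an alternative end joining route, read -4.34, -3.71 and -3.99 in TGC3, against -5.28, -4.69 and -4.38 in TG (0.77 ± 0.26, adjusted p = 0.0800). Msh6, a mismatch recognition subunit, read 3.03, 3.09 and 3.12 in TGC3, against 3.08, 3.16 and 3.17 in TG, with overlapping groups (-0.06 ± 0.06, adjusted p = 0.532).

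**Figure D3:**
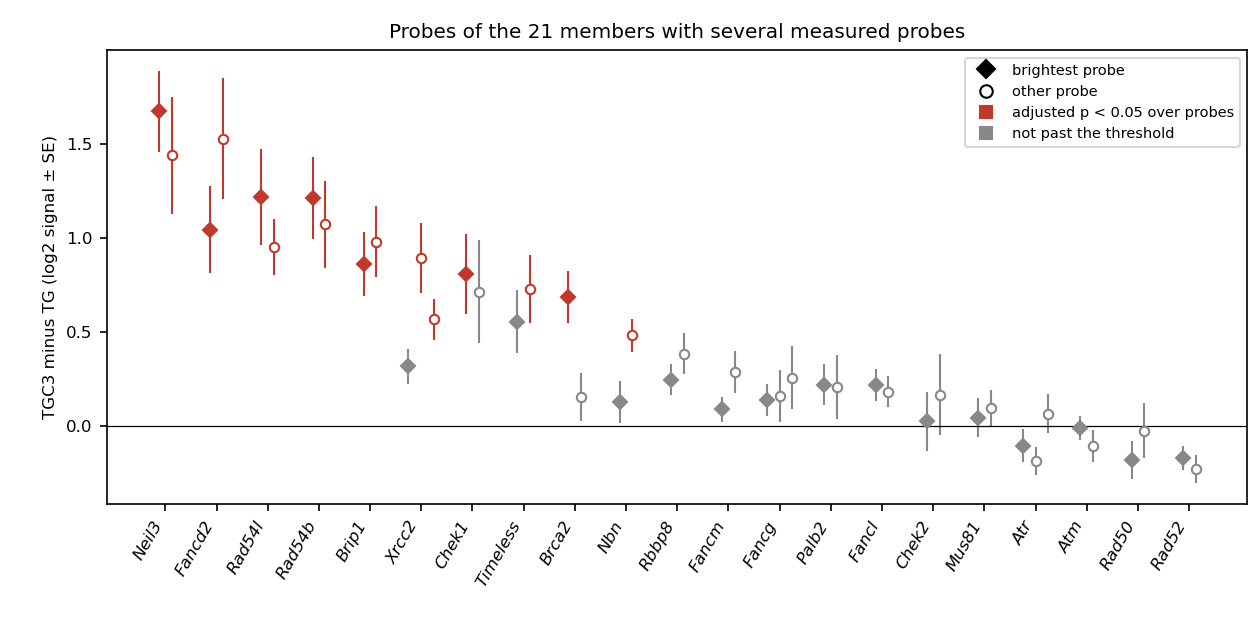
Change of every kept probe (log2 signal, TGC3 minus TG, ± SE) for the 21 genes read by several kept probes, with the brightest probe as a diamond and red for an adjusted p under 0.05 over all probes. In 20 of the 21 genes the probes share their sign (Atr is the other), and in 5 some but not all probes passed. The dimmest probes of Chek2, Fancd2 and Fancg were above background on 3 arrays and those of Rad54b and Xrcc2 on 4, so their changes are taken partly from values near background.

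The 14 genes that rose shared an order of arrays. TGC3 2 was the highest array in 14 of 14, while it was the highest TGC3 array in 50.8% of all 2725 genes that were higher and in 43.2% of all genes tested. Within TG, TG 3 was the highest array in 13 of 14 (39.7% of all genes that were higher), and the lowest was TG 2 in 10 and TG 1 in 4. After subtraction of each gene's mean, the median of the 14 was 0.34, 0.82 and 0.27 on TGC3 1 to TGC3 3, against -0.61, -0.63 and -0.22 on TG 1 to TG 3. TGC3 2 was also the highest of the 6 arrays in the sums of neutrophil, macrophage, dendritic cell and erythroid markers. Its B cell sum was the lowest in TGC3, yet the B cell marker Ms4a1 had 101 units there, 30.2 and 35.2 units on TGC3 1 and TGC3 3, and 2.42 to 2.85 units in TG. The part of these markers in the changes was not tested. Without TGC3 2, 12 of the 14 still passed, the median change of the 14 was 0.75, against 0.90 with all arrays, and Brca1 and Chek1 did not pass. The count higher among the 40 was 13 without TGC3 2 (Xrcc2 was added), 12 without TGC3 1, 11 without TGC3 3 or TG 3, and 5 without TG 1 or TG 2, the arrays with the lowest values. Of all genes, 12% were higher without TG 1 and 11% without TG 2, so that 5 of the 40 was little above the share of all genes. Without any other array, 12% to 14% of all genes were higher, and the share among the 40 stayed above that. Rad54b, Exo1, Eme1 and Neil3, were the 4 genes that passed whichever of the 6 arrays was left out. Among the 26 genes that did not pass, TGC3 2 was the highest TGC3 array in 15.

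**Figure D4:**
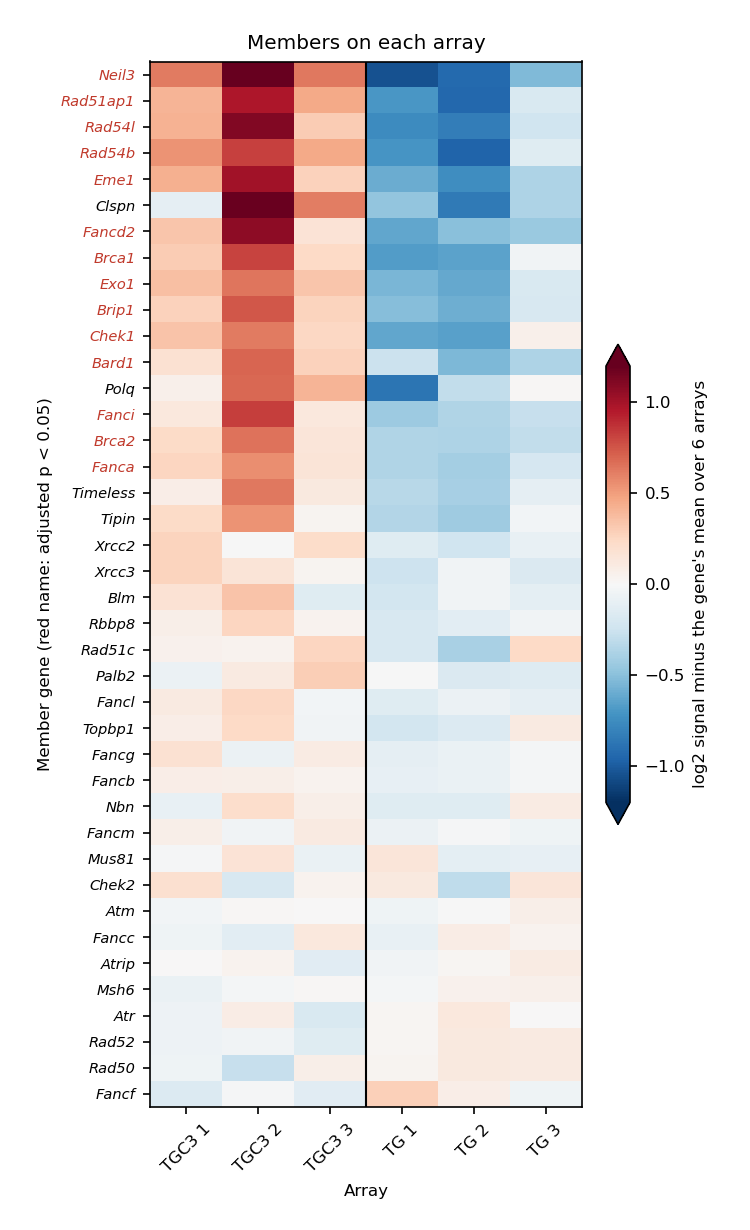
Scaled log2 signal of the 40 genes on each array minus the gene's mean over the 6 arrays (colour), sorted by change, with genes that rose named in red and the TGC3 arrays left of the line. The upper rows are darkest red on TGC3 2 and darkest blue on TG 1 and TG 2, and the lower rows, such as Atm and Msh6, are nearly white on all arrays.

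Further genes of the same pathways were counted in lists, none of whose members belong to the 40. Of 24 further recombination genes measured, 4 were higher (16.7%, against 16.6% of all genes) and 1 lower (median 0.11). Mnd1, known for meiotic recombination, rose by 1.28 ± 0.15 (limma adjusted p = 0.0042) and Gen1, a nuclease that cuts crossed strands, by 0.76 ± 0.17 (0.0261). Of 11 further Fanconi pathway genes, 1 was higher, Apitd1, a histone fold protein of the core (0.79 ± 0.15, adjusted p = 0.0143), and 0 were lower (median 0.05). Of 20 further checkpoint genes, 2 were higher and 0 lower (median -0.02). These were Wee1, the kinase that holds CDK1 inactive (0.71 ± 0.10, adjusted p = 0.00625), and H2afx, the histone marked at breaks (0.59 ± 0.16, 0.0401). These shares, 9.09% and 10%, were below that of all genes. Gen1 did not pass when a TG array was left out (adjusted p = 0.0624 to 0.0816), nor H2afx when an array other than TGC3 2 was (0.0520 to 0.115).

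Repair routes outside recombination were counted in the same way. The share higher was 25% in base excision repair, 8.33% in nucleotide excision repair and 0% in end joining and mismatch repair. Over all genes it was 16.6%, with 9.45% lower. End joining had 0 higher and 1 lower of 14 (median -0.15), the kinase gene Prkdc (-0.24 ± 0.07, adjusted p = 0.0468), and mismatch repair had 0 either way of 6 (median -0.01), where limma gave no member an adjusted p under 0.05. Prkdc did not pass in 12 of 19 other settings, among them each array left out other than TGC3 2 (0.0941 to 0.139), and without TGC3 2 the list had 5 lower. Nucleotide excision repair had 1 higher of 12, Xpa (0.28 ± 0.08, adjusted p = 0.0458), and 0 lower (median -0.09). Xpa did not pass in 11 of 19 other settings, among them each array left out other than TGC3 3 (0.07 to 0.13). Base excision repair had 4 higher and 3 lower of 16 (median 0.10), among them Tdg, a thymine glycosylase (0.69 ± 0.07, adjusted p = 0.00244), and the replication enzymes Lig1 (0.68 ± 0.14, 0.0168) and Fen1 (0.47 ± 0.09, 0.0143). Fen1 did not pass without TG 1 or TG 2 (0.0514 to 0.0521), nor Lig1 without TG 1 (0.0532). Of 7 proliferation genes, 5 were higher and 0 lower (median 1.42), with Cdk1 at 1.82 ± 0.20 (adjusted p = 0.00329), Ccna2 at 1.82 ± 0.23 (0.0048), Top2a at 1.56 ± 0.21 (0.00564) and Mki67 at 1.07 ± 0.20 (0.0149). The replication genes Pcna (0.28 ± 0.11, limma adjusted p = 0.103) and Mcm2 (0.23 ± 0.11, 0.176) of this list did not pass. Mki67 read 4.05, 4.69 and 4.06 in TGC3, against 3.11, 3.04 and 3.44 in TG, again with TGC3 2 and TG 3 the highest of their groups. It did not pass without TG 1 or TG 2 (adjusted p = 0.0512 to 0.0525).

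**Figure D5:**
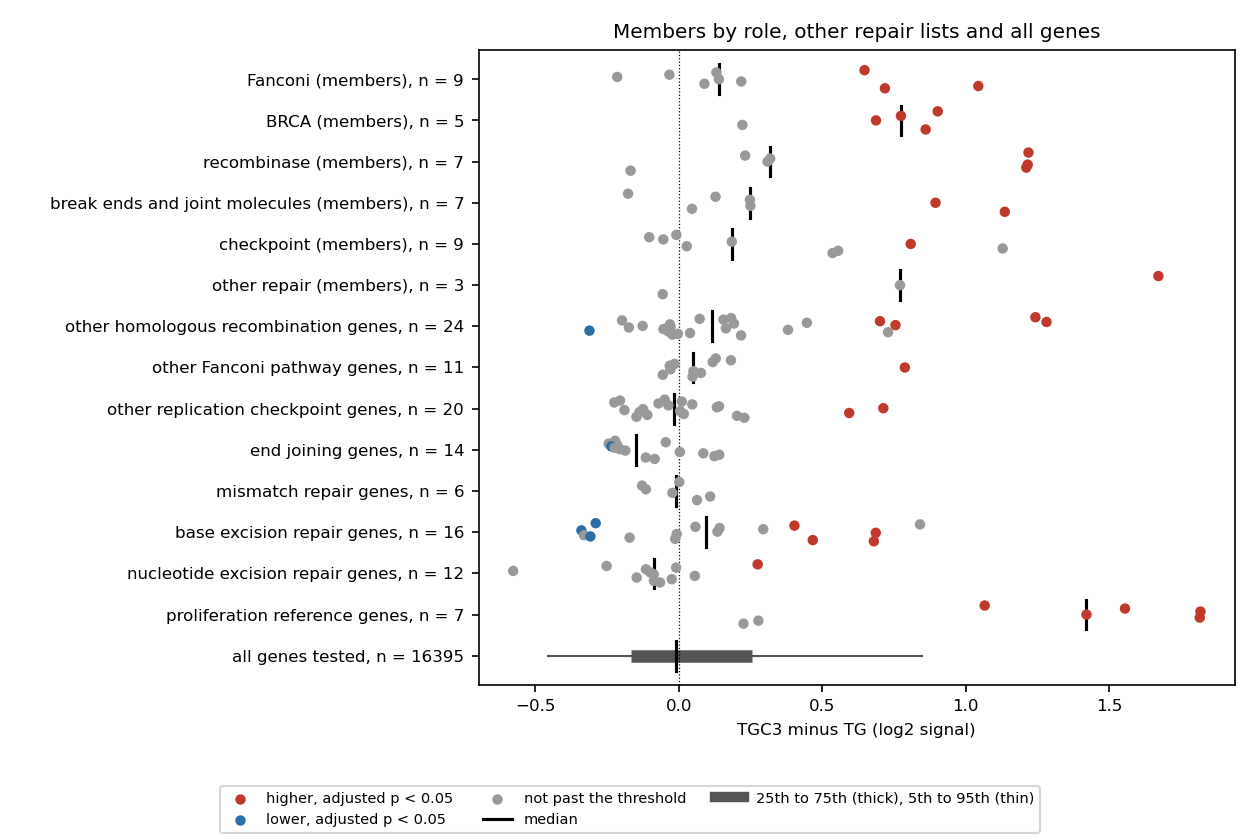
Change of each gene (log2 signal, TGC3 minus TG) in the 6 role groups of the set, in the other repair lists and in the proliferation list, with the list's median as a bar and all 16395 genes below as percentiles. Red points are higher at an adjusted p under 0.05: 4 of 5 in the BRCA group, 1 of 9 in the checkpoint group, 5 of 7 in the proliferation list, and 0 in the end joining and mismatch repair lists.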

How the data were processed

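Spots of the 6 arrays were read with Agilent Feature Extraction, version 10.7.3.1 in the headers and 10.7.1.1 in the submitters' processing notes. The deposited processed signal is an intensity that the software corrected for background and for trends across the array, per the file headers, and arrays were not scaled to each other. The authors' deposited matrix holds log2 values, whose making is not given in the sources used here. It served as an alternative. Probe positions are mm9.

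Of 43379 non-control spots, repeats of a probe were averaged (41174 probes, 11 dropped for outlier spots, 0 saturated spots). The log2 processed signal minus the array's 75th percentile was used. A probe was kept if at least 3 of 6 arrays had it well above background (25103 probes). Genes carry the names in the files, and the brightest kept probe stood for each of 16395 genes, and of the 75 probes for the 40 genes 64 were kept. TGC3 and TG were compared with limma 3.58.1 (lmFit, eBayes) in R 4.3.3, with data.table in version 1.17.8 and statmod 1.5.0, two-sided, and probes were also tested singly. Promoters were searched with Python 3.11.15 and pandas 2.3.3, and figures drawn with matplotlib 3.10.9. On simulated data for this comparison (16395 genes), the fit found 39 of 67 changes of 1.5-fold, 55 of 67 of 2-fold and 61 of 66 of 4-fold, and called 11 of 16195 genes left as they were.

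The labels do not say whether the arrays came from separate mice, so the p-values rest on the spread between samples that may be technical. The number of arrays limits the precision. The 40 genes and the lists were chosen with earlier results of these data known. Values on every array are given for all genes of the set that passed and for up to 3 others of each role group with the largest change, and up to 3 genes past the threshold are named from each further list, besides Cxcr3 and Mki67. Rad52 and Atm were added after their values were seen. Some results are not reported here. The settings in the closing section were tried one at a time. All columns were mapped (0 unmapped).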

Additional observations from a re-analysis of the deposited data

How the results depend on the processing

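Under 11 other scalings, filters, probe rules and variance settings, which leave out normexp with backgrounds as read and the replicate block, 10 to 19 of the 40 were higher, and 10 to 14 of these were among the 14. The share of all genes higher ran from 7.65% (no filter) to 19.9% (array weights) under these settings. With quantile normalization or the deposited values 14 were higher and 1 lower (Fancf), and Fanci and Chek1 did not pass. Centring on the median shifted every gene by -0.17 (to a median of -0.18) and gave 1803 higher and 4768 lower among all genes (27.4% of calls higher, against 63.8%), and a median of 0.10 for the 40 genes, with 3 lower (Atr, Fancf and Rad52). Normexp with an offset of 50 left 0 higher and 1 lower among all genes with limma (507 at an unadjusted p under 0.05, 1 of them in the set), 0 of the 40, and 0 in the Fanconi, BRCA, recombinase, break end and checkpoint groups. Of the named genes that passed in the main fit, Bard1 (-0.67), Rad54l (-0.25), Chek1 (-0.063), Mnd1 (-0.38), Gen1 (-0.066) and Wee1 (-0.73) then changed sign. So did several that had not passed. Among these, Clspn (-0.15), Polq (-0.64), Xrcc2 (-0.41) and Xrcc3 (-0.44) went below 0, and Atr (0.21) and Msh6 (0.28) above it. With the aberrant spot backgrounds of TG 3 replaced, normexp gave 16 higher and 4 checkpoint genes (52.2% of calls higher). No filter gave 578 genes lower (78.4% of calls higher), 1 Fanconi and 0 checkpoint genes. The filter on all 6 arrays gave 5 recombinase and 4 checkpoint genes. The most variable probe gave a median of 0.43, 4 break end and 2 checkpoint genes. The eBayes trend gave 4 checkpoint genes. Array weights gave 2414 genes lower, 1 of the 40 lower, and 5 recombinase and 3 checkpoint genes. The replicate block gave 1802 higher and 556 lower (76.4% of calls higher), 7 of the 40 higher (6 of them among the 14), 1 each in the Fanconi, BRCA and recombinase groups, and 0 checkpoint genes. Arrays of the same number did not deviate together (r = -0.00, -0.08 and -0.10 across genes), and the main fit took them as unpaired. With 3 arrays in each group, these correlations cannot tell whether samples of the same number were handled together. Leaving out 1 array gave 1754 to 2360 genes higher, 573 to 1503 lower, 5 to 13 of the 40 higher and 0 lower, a median of 0.27 to 0.33, and 0 to 3 Fanconi, 0 to 3 BRCA, 1 to 4 recombinase, 2 break end and 0 to 1 checkpoint genes. Over all settings, end joining had 0 to 5 genes lower, nucleotide excision repair 0 to 1 higher and 0 to 3 lower, and base excision repair 0 to 4 lower. The causes were not tested. Signals near background, such as Bard1, limit what the arrays resolve.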
